A study of Arabidopsis thaliana with 14 samples.

Results

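AT4G11190 and AT4G11210 are a pair of dirigent genes of Arabidopsis thaliana, taken here for their strong rise with both treatments of a root tip experiment. Each has 1 probe set of its own, so the members are 2 genes of 13355 with a named probe set, on an array of 22810 probe sets. The pairing of probe sets with genes used here names no gene for 8794 of these. Below, a gene without a probe set of its own has none in this pairing and may still be on the array. Both members were chosen by their measured signals in treated against control root tips. Their differences from control are thus given below as a description, without a test. AT4G11190 stood far above control under both treatments at both times. AT4G11210 stood well above control at 24 h, but at 12 h its difference was small or its arrays overlapped with control, so the choice for a strong rise suits it less well at the earlier time.

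Dirigent proteins are secreted proteins of the plant cell wall with no oxidising activity of their own. An oxidase such as a laccase or peroxidase makes radicals from monolignols, the building blocks of lignin, and a dirigent protein holds these radicals so that they couple in 1 orientation, which gives a lignan of 1 handedness. In the Arabidopsis root the family member ESB1 takes part in placing lignin in the Casparian strip, the ring that seals the walls of the endodermis. No source used here names the substrates of AT4G11190 or AT4G11210. Cytokinins, among them trans-zeatin, are adenine-derived hormones that limit cell division in the root tip, and isopentenyltransferases such as IPT8 carry out the first step of their synthesis.

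All 14 samples came from 1 line, named AtIPT8/pga22, in the Wassilewskija background, and the labels of every sample, controls included, also state a T-DNA knock-out of IPT8. In work on this line, pga22 is known for an estradiol-switched gain of IPT8, which is another description than that of the labels. Seedlings grown for 7 days on upright plates were given liquid medium alone (control), medium with 5 µM 17-beta-estradiol or medium with 5 µM trans-zeatin, and the last 5 mm of the primary root were taken after 12 or 24 h. The control and estradiol groups at 12 h have 3 arrays each, and the trans-zeatin group at 12 h and all 3 groups at 24 h have 2 each. No line without the construct was included, so a response to estradiol itself and a response to IPT8 cannot be told apart. Only 2 of 10 listed type-A response regulators, the early cytokinin response genes, had a named probe set that passed the filter. RR16 was called higher in all 4 comparisons with control, by 2.49 to 3.16 on the log2 scale, and ARR15 in 3 of them. The call of ARR15 with estradiol at 12 h held in 11 of 25 alternatives. It was lost without 12 h control replicate 3 and estradiol 12 h replicate 1 together (limma adjusted p = 0.221). IPT8 has no named probe set and was not analysed here.

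The values are signal intensities from ATH1 arrays, scaled by the authors so that each array has the same trimmed mean. Medians over all probe sets were 35.4 to 42.4 per array. Differences are on the scale of log2(signal + 6.3), with 1 mean per group fitted to all 14 arrays, and their standard errors (SE) come from limma. On this scale the ratio of dim signals is understated. The number of arrays, 2 or 3 per group, limits the precision. In root tips measured whole, fewer cells of a type and less RNA per cell cannot be told apart. The replicates are not stated to be separate cultures, so the p-values measure the spread between these samples only. The labelled tissue could hardly be checked. None of the listed markers of root meristem (5), root cap (4), xylem (5) or phloem (2) has a named probe set of its own. These genes may still be on the array. The root hair gene EXPA7 had signals of 23.4 to 54.4.

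On the second principal component, which held 13.6% of the variance, 2 arrays lay away from the rest: replicate 3 of the 12 h controls and replicate 1 of estradiol at 12 h. Differences of the members at 12 h, and calls that these arrays decide, are also given without both. The 3'/5' ratio of actin, taken from control probe sets as a measure of RNA integrity, was 3.23 to 4.93 in control and 2.37 to 3.31 in treated arrays at 12 h. At 24 h it was 6.24 to 6.44 in control and 3.71 to 4.85 in treated arrays. An older pair of actin probe sets on the same arrays gave 25.2 to 29.5 in control and 12.9 to 20.5 in treated arrays at 12 h, the same order and with no overlap. At 24 h the older pair gave 18.9 to 25.7 in control and 24.1 to 33.6 in treated arrays, where the ranges overlapped and the treated arrays had the higher range. The part of RNA quality in the differences below was not tested beyond 2 fits with these ratios as a covariate, whose values are given with the alternatives.

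AT4G11190 had signals of 34.6, 134 and 143 in the control arrays at 12 h and of 16.0 and 37.2 at 24 h. With estradiol it read 936, 1135 and 812 at 12 h and 1241 and 972 at 24 h. With trans-zeatin it read 747 and 1212 at 12 h and 1948 and 1328 at 24 h. Every treated array was above every control array, and the lowest treated signal was 747 against a highest control signal of 143. Within its own array the gene lay between the 29.8th and the 78.8th percentile of all probe sets in controls and between the 96.5th and the 99.0th in treated root tips. The control arrays were not uniform: replicate 1 at 12 h lay within the range of the 24 h controls and the other two lay above them.

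The group means of AT4G11190 were 104 ± 60.1 (SD, n = 3) in control and 961 ± 163 (SD, n = 3) with estradiol at 12 h. The trans-zeatin mean at 12 h was 979 ± 329 (SD, n = 2). At 24 h the means were 26.6 ± 15.02 in control, 1106 ± 191 with estradiol and 1638 ± 439 with trans-zeatin (SD, n = 2 each). On the log2 scale the gene was higher with estradiol by 3.33 ± 0.41 (SE) at 12 h and 5.15 ± 0.50 at 24 h, which are folds of 10.1 and 35.5. With trans-zeatin it was higher by 3.33 ± 0.46 at 12 h and 5.70 ± 0.50 at 24 h, which are folds of 10.1 and 51.8. Among the 15605 probe sets measured, these differences ranked 4th and 2nd for estradiol and 8th and 1st for trans-zeatin. Without both arrays that stood apart, the 12 h differences were 3.67 with estradiol and 3.66 with trans-zeatin. Leaving out any 1 array moved them within 2.73 to 3.66 and 4.67 to 5.63 for estradiol, and within 2.73 to 3.68 and 5.21 to 6.18 for trans-zeatin.

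AT4G11210 had signals of 13.1, 16.8 and 31.3 in the control arrays at 12 h and of 3.32 and 2.70 at 24 h. With estradiol it read 27.2, 70.2 and 81.8 at 12 h and 72.7 and 44.2 at 24 h. With trans-zeatin it read 35.8 and 34.5 at 12 h and 65.1 and 33.2 at 24 h. Treated and control arrays overlapped with estradiol at 12 h, where the lowest treated array (27.2) lay below the highest control array (31.3), and did not overlap in the other comparisons. These are the same arrays, estradiol replicate 1 and control replicate 3, that stood apart on the second principal component. In its own arrays the gene lay between the 30.0th and the 46.3th percentile in controls at 12 h, between the 11.8th and the 13.0th in controls at 24 h and between the 43.6th and the 66.7th in treated root tips. Such a percentile depends on how well a gene's probes bind as well as on its RNA.

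The group means of AT4G11210 were 20.4 ± 9.67 (SD, n = 3) in control, 59.7 ± 28.8 (SD, n = 3) with estradiol and 35.1 ± 0.887 (SD, n = 2) with trans-zeatin at 12 h. At 24 h they were 3.01 ± 0.434, 58.4 ± 20.1 and 49.1 ± 22.5 (SD, n = 2 each). On the log2 scale the gene was higher with estradiol by 1.25 ± 0.37 (SE) at 12 h, ranking 184th, and by 2.76 ± 0.45 at 24 h, ranking 44th. With trans-zeatin it was higher by 0.69 ± 0.41 at 12 h, ranking 1045th, with a 95% interval of -0.18 to 1.57, and by 2.51 ± 0.45 at 24 h, ranking 50th. The 24 h controls lay below the added 6.3, and the ratios of mean signals at 24 h were 19.4 for estradiol and 16.3 for trans-zeatin against fitted folds of 6.79 and 5.71. Without both arrays that stood apart, the estradiol difference at 12 h was 1.96 and the trans-zeatin difference was 0.97. With the older actin ratio, which separated control from treated arrays at 12 h, as a covariate, these differences at 12 h were 0.33 and -0.06.

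As background, the share of all measured probe sets with every treated array above every control array was 11.1% for estradiol and 17.6% for trans-zeatin at 12 h, and 19.8% and 22.2% at 24 h. With 2 or 3 arrays per group, groups that do not overlap are thus common. The share called in either direction at an adjusted p under 0.05 was 4.88% and 7.54% at 12 h and 3.81% and 3.47% at 24 h, in the same order. Nothing is read from these shares about the pair, since the same comparisons chose it.

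**Figure D1:**
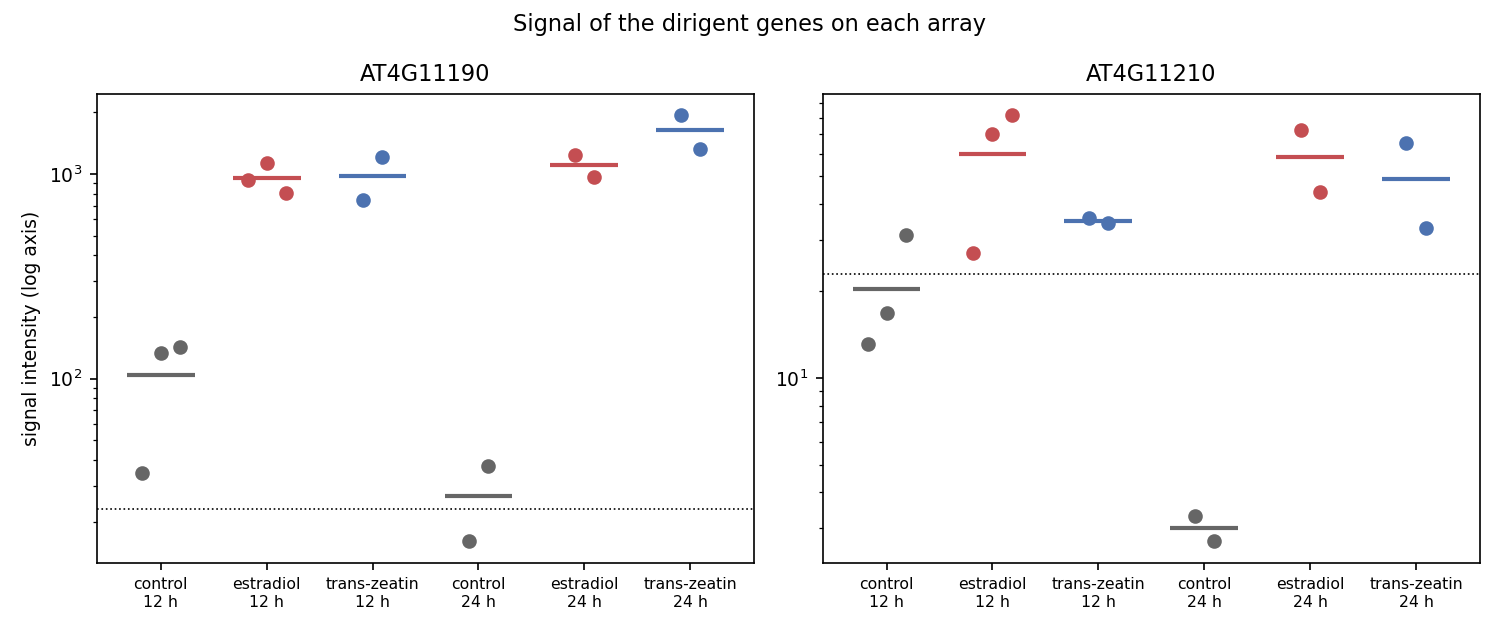
Signal intensity of AT4G11190 (left) and AT4G11210 (right) on each of the 14 arrays, on log axes that differ between the panels. Points are arrays, bars are group means and the dotted line marks a signal of 23, the minimum used to keep probe sets. All treated arrays of AT4G11190 lie at 747 or above and all its controls at 143 or below, while for AT4G11210 1 estradiol array at 12 h (27.2) lies below 1 control array (31.3).

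The comparison of the treatments with each other was not itself used to choose the genes and was tested. Its arrays did enter the comparisons with control that chose them, and the choice asked for a rise with both treatments. The lack of a call below is thus not independent of the choice. Neither gene passed the test between estradiol and trans-zeatin at either time. At 12 h, AT4G11190 differed by 0.00 ± 0.46 on the log2 scale (estradiol minus trans-zeatin, SE), with a 95% interval of -0.98 to 0.98 and an adjusted p of 1 from limma, to the digits shown. AT4G11210 was 0.56 ± 0.41 higher with estradiol at 12 h, with an interval of -0.32 to 1.43 (limma adjusted p = 0.764). All 3 estradiol arrays of AT4G11190 lay within the range of the trans-zeatin pair at 12 h, and those of AT4G11210 lay on both sides of it. Without both arrays that stood apart, the difference of AT4G11210 was 0.99. In this comparison 0.00641% of probe sets, 1 of 15605, were called.

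At 24 h, AT4G11190 was lower with estradiol than with trans-zeatin on all arrays, by 0.55 ± 0.50 on the log2 scale, with an interval of -1.62 to 0.53 (limma adjusted p = 0.952). AT4G11210 differed by 0.25 ± 0.45 (estradiol minus trans-zeatin), with an interval of -0.71 to 1.21 (limma adjusted p = 0.989), and its arrays overlapped. Here 0.0449% of probe sets were called, and 21.7% had every estradiol array below every trans-zeatin array. These intervals are wide, so that they do not show that both treatments acted alike on either gene.

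Both genes had a lower mean in the 24 h than in the 12 h controls. The control arrays also entered the comparisons that chose the genes, so these differences are given as a description, without a test. AT4G11190 was lower by -1.61 ± 0.46 on the log2 scale, with an interval of -2.59 to -0.63. AT4G11210 was lower by -1.46 ± 0.41, with an interval of -2.34 to -0.58. The control arrays of AT4G11190 overlapped between the times, since replicate 1 at 12 h read 34.6 and 1 array at 24 h read 37.2, and those of AT4G11210 did not. Without control 12 h replicate 1 the difference of AT4G11190 was -2.22, and with no value added before the logarithm that of AT4G11210 was -2.67. Without both arrays that stood apart the differences were -1.28 and -1.18. In all, 0.468% of probe sets were called between the control times, and 14.9% had every 24 h control below every 12 h control.

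Between the times, no difference of a treated group passed the test for either gene. The treated arrays also entered the comparisons that chose the genes, so these p-values are not independent of the choice. With estradiol, the 24 h level minus the 12 h level was 0.21 ± 0.46 for AT4G11190 (interval -0.78 to 1.19, limma adjusted p = 0.942) and 0.05 ± 0.41 for AT4G11210 (interval -0.82 to 0.93, limma adjusted p = 0.993). With trans-zeatin it was 0.75 ± 0.50 for AT4G11190 (interval -0.32 to 1.83, limma adjusted p = 0.590) and 0.36 ± 0.45 for AT4G11210 (interval -0.60 to 1.32, limma adjusted p = 0.800). Only AT4G11190 with trans-zeatin was higher at 24 h on all arrays, as were 24.8% of all probe sets. In the estradiol and trans-zeatin groups 0.513% and 0.32% of probe sets were called between the times.

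The difference from control was therefore larger at 24 h than at 12 h for both genes, by 1.81 ± 0.65 and 2.36 ± 0.68 for AT4G11190 with estradiol and trans-zeatin, and by 1.51 ± 0.58 and 1.82 ± 0.61 for AT4G11210. Each of these values is the treated difference between the times minus that of the controls, and it is made of the comparisons that chose the genes, so it carries no test. For AT4G11190 with estradiol it is 0.21 less -1.61, and for AT4G11210 with estradiol 0.05 less -1.46. With trans-zeatin the treated differences are 0.75 and 0.36, from which the same control values are taken. Without both arrays that stood apart the estradiol value of AT4G11210 was 0.80. The 95% intervals for AT4G11190 were 0.43 to 3.20 with estradiol and 0.91 to 3.82 with trans-zeatin. Those for AT4G11210 were 0.27 to 2.75 and 0.52 to 3.12. Of 15605 probe sets, 12 were called for this change with estradiol and 0 with trans-zeatin.

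**Figure D2:**
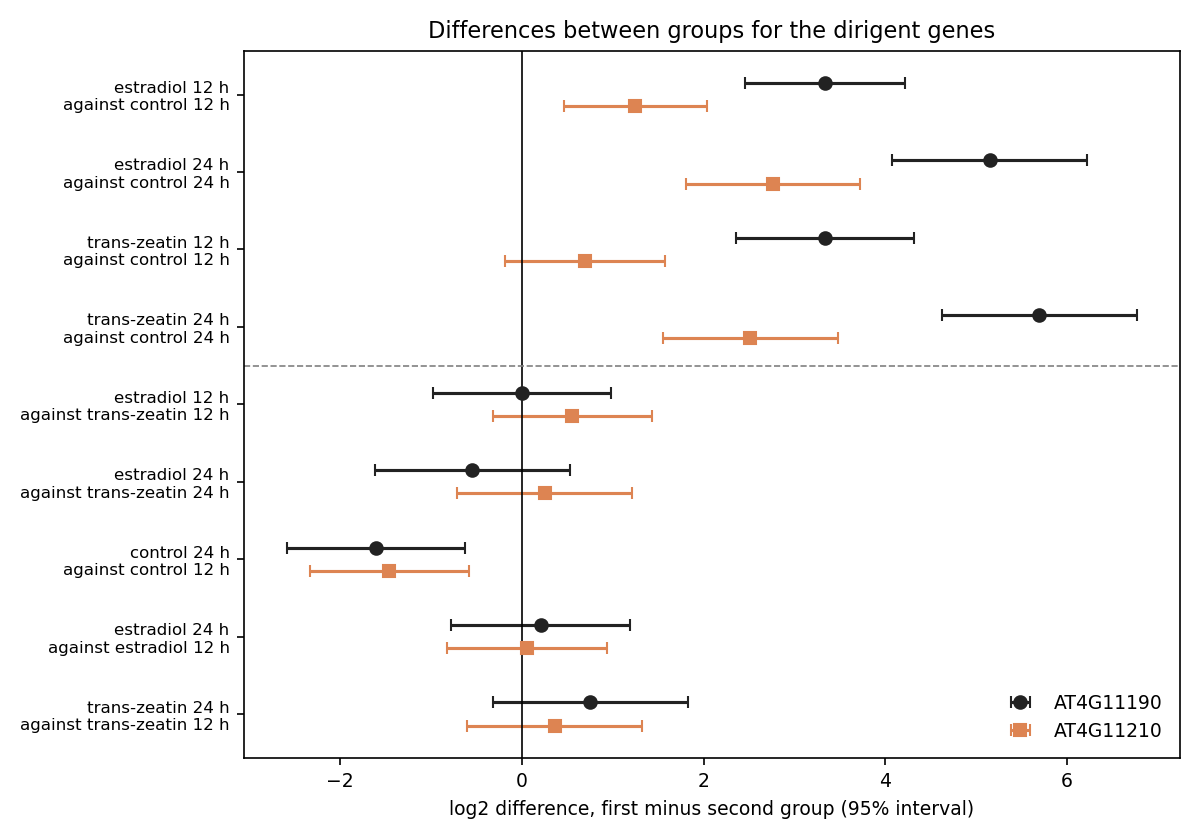
Log2 differences of AT4G11190 and AT4G11210 in 9 comparisons, with bars for the 95% interval from limma. The dashed line separates the 4 comparisons with control, which chose the genes and carry no test, from the other 5, of which that between the control times is also without a test. The differences between the control times are -1.61 and -1.46, and the intervals of the 4 tested comparisons all include 0.

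Ordered by mean signal, AT4G11190 ran from control 24 h through control 12 h, estradiol 12 h, trans-zeatin 12 h and estradiol 24 h to trans-zeatin 24 h. Neighbours in this order overlapped except for control and estradiol at 12 h, and for estradiol and trans-zeatin at 24 h. AT4G11210 ran from control 24 h through control 12 h, trans-zeatin 12 h, trans-zeatin 24 h and estradiol 24 h to estradiol 12 h. Its control groups were separate from each other and from trans-zeatin at 12 h, and the treated neighbours overlapped. Over the 9 treated arrays, the log2 levels of both genes had a Pearson r of 0.195 (exact permutation test, two-sided, p = 0.626, adjusted p = 0.982) and a Spearman rho of -0.0167 (exact permutation p = 0.982, adjusted p = 0.982), with the adjustment over these 2 measures. The permutations ran over all 9 arrays without regard to their treatment and time groups. The treated arrays also entered the choice of the genes. For both reasons, nothing further is read from these p-values. Without the 2 arrays farthest from the median of AT4G11190, r was -0.216 over 7 arrays. Over all 14 arrays, the deviations of both genes from their group means had an r of 0.388, given as a description.

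Along chromosome 4 only the pseudogene AT4G11200 is annotated between the members in the gene table of assembly TAIR10.1. Its own probe set was below the filter, with group means of 7.84 to 18.1. AT4G11180, which the table lists as dirigent protein 1, lies next to AT4G11190 on its other side. It has no named probe set of its own, so it is not analysed here. Within 10 gene places on either side, 8 of 23 genes have a named probe set of their own, 6 were kept and 4 are not members. None of these 4 was called in any of the 4 comparisons by limma, where 4.88% and 3.81% of probe sets were called with estradiol at 12 and 24 h and 7.54% and 3.47% with trans-zeatin. At an unadjusted p under 0.05 there were 1 and 0 of them with estradiol and 1 and 2 with trans-zeatin, beside 20.8% and 18.3% of all probe sets with estradiol and 23.3% and 17.3% with trans-zeatin. With 4 genes, these counts cannot be set apart from the background.

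The gene AT4G11175 had the largest differences among these 4 neighbours, 0.61 ± 0.22 (limma adjusted p = 0.102) and 0.62 ± 0.24 (limma adjusted p = 0.189) with trans-zeatin at 12 and 24 h. TOPP7, a type 1 protein phosphatase gene on the far side of AT4G11210, differed by -0.19 to 0.23 over the 4 comparisons. AT4G11160 differed by -0.42 to 0.10, and AT4G11270 by -0.22 to 0.45. AT4G11230, the other gene below the filter, had group means of 3.43 to 14.9. The members' own differences in these comparisons were 0.69 to 5.70, values for which they were chosen.

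**Figure D3:**
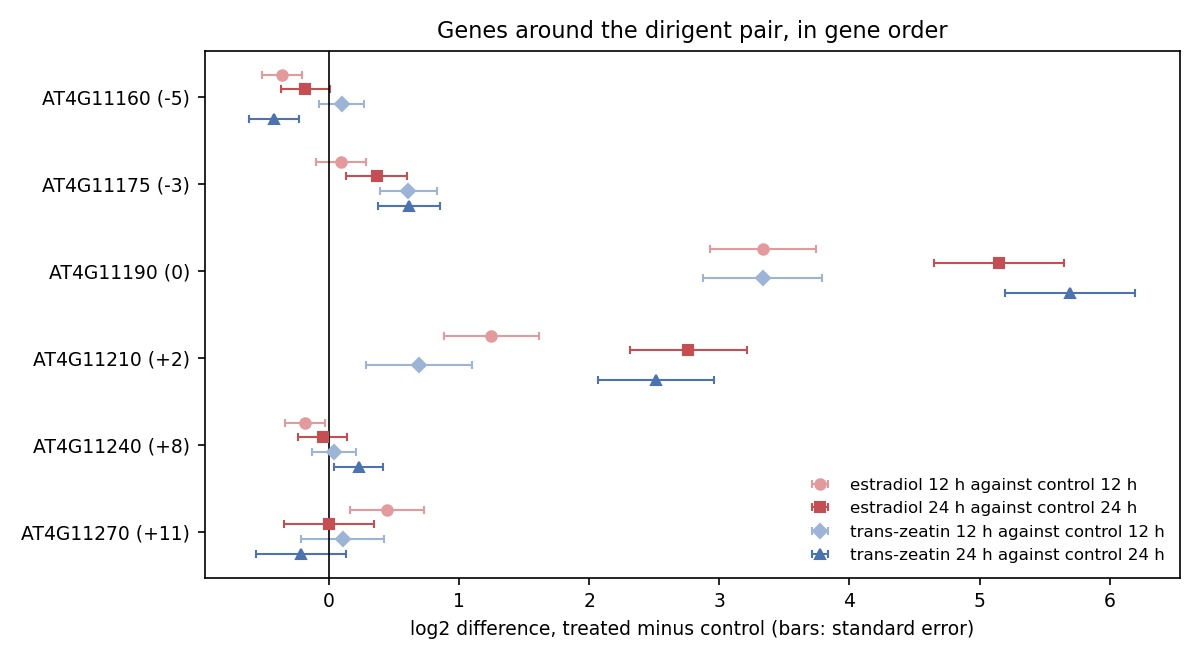
Log2 differences from control of genes within 10 places of the members in gene order, for both treatments at both times; gene order is from assembly TAIR10.1 the number beside each name is its place from AT4G11190, bars are standard errors, and genes below the filter or without a probe set of their own are left out. The 4 measured neighbours lie between -0.42 and 0.62, and none was called.

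Of 25 genes listed for the dirigent family, 15 have a probe set of their own and 9 were kept, 7 of them besides the members. AT4G11180, ESB1, DIR5 and DIR6 are among the 10 without one in the pairing used, which does not show that the array lacks them. The 6 genes below the filter are AT2G21110, AT3G13662, AT1G22900, AT4G38700, AT3G58090 and AT1G65870. Their highest signals on any array were 9.82 to 20.8, so none exceeded 23. Of the 7 measured relatives none was called higher in any of the 4 comparisons, beside 2.36% and 2.28% of probe sets called higher with estradiol at 12 and 24 h and 3.21% and 2.15% with trans-zeatin. AT3G13660 passed the filter only through both trans-zeatin arrays at 12 h, where it was high, so it is left out of the counts that follow. At an unadjusted p under 0.05 in either direction, limma gave 3 and 2 of the other 6 with estradiol at 12 and 24 h and 2 and 2 with trans-zeatin, beside 20.8%, 18.3%, 23.3% and 17.3% of all probe sets. The median log2 difference of these 6 was 0.28 and 0.12 with estradiol and -0.16 and 0.10 with trans-zeatin at 12 and 24 h, beside medians over all probe sets of -0.0034, -0.09, -0.03 and -0.06.

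AT2G39430 was the 1 family gene with a probe set of its own that was called lower, at 12 h only. Its signal was 136 ± 11.7 (SD, n = 3) in control, 77.6 ± 23.0 (SD, n = 3) with estradiol and 76.1 ± 13.5 (SD, n = 2) with trans-zeatin at 12 h. It was lower by -0.79 ± 0.19 with estradiol (limma adjusted p = 0.031) and by -0.79 ± 0.22 with trans-zeatin (limma adjusted p = 0.041), where 2.52% and 4.33% of all probe sets were called lower. At 24 h, where 1.53% and 1.32% of probe sets were called lower, its differences were 0.01 and 0.06. The calls at 12 h held in 14 and 7 of 25 alternatives, with adjusted p-values of 0.0103 to 0.376 and 0.0236 to 0.276, so they depended on the settings. Without both arrays that stood apart they were lost, with limma adjusted p-values of 0.182 and 0.0918.

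AT1G58170 was the relative with the largest differences in the members' direction at 24 h, and it was not called. Its signal was 47.7 ± 4.95 (SD, n = 3) in control and 101 ± 17.7 (SD, n = 3) with estradiol at 12 h, and 36.9 ± 5.83 and 94.1 ± 28.0 (SD, n = 2 each) at 24 h. Its log2 differences were 0.98 ± 0.27 (limma adjusted p = 0.052) and 1.20 ± 0.33 (adjusted p = 0.061) with estradiol, and 0.47 ± 0.30 (adjusted p = 0.379) and 0.84 ± 0.33 (adjusted p = 0.197) with trans-zeatin. It was called with estradiol in 6 of 25 alternatives at 12 h and in 5 of 25 at 24 h.

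The other measured relatives had smaller or mixed differences. AT1G55210 was above control on all arrays at 24 h, by 0.67 ± 0.25 with estradiol (limma adjusted p = 0.159) and 0.56 ± 0.25 with trans-zeatin (adjusted p = 0.261), and differed by 0.09 and 0.02 at 12 h. AT2G21100 was above control on all arrays at 12 h, by 0.59 ± 0.25 with estradiol (limma adjusted p = 0.204), and AT4G13580 was below it by -0.70 ± 0.25 with trans-zeatin at 12 h (adjusted p = 0.110). AT3G13660 exceeded 23 only on both trans-zeatin arrays at 12 h (23.3 and 31.4), against 4.48 to 12.3 in the 12 h controls. It thus passed the filter through the group where it was high, and its difference there, 1.35 ± 0.51, is given without a test. AT3G13650 ranged from -0.48 to 0.46.

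A pair of further probe sets each hold a family gene among several genes, so no single gene can be named from them. The first pairs with 2 genes of the family and was lower with trans-zeatin at 12 h by -2.07 ± 0.32 (limma adjusted p = 0.0020). The second, which pairs with 1 family gene and 1 other gene, was lower there by -1.02 ± 0.23 (limma adjusted p = 0.017). The first call held in 23 of 25 alternatives and was lost with either actin ratio as a covariate. The second held in 20 of 25 and was lost with either actin ratio and without control 12 h replicate 1, control 12 h replicate 2 or trans-zeatin 12 h replicate 2. Neither was called with estradiol or at 24 h, where the log2 differences were -0.53 to 0.07. With trans-zeatin at 12 h these probe sets and AT2G39430 were thus called lower. Of all probe sets, 4.33% were called lower there and 3.21% higher. All 3 calls were lost with either actin ratio as a covariate, and nothing is read from them about the family.

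**Figure D4:**
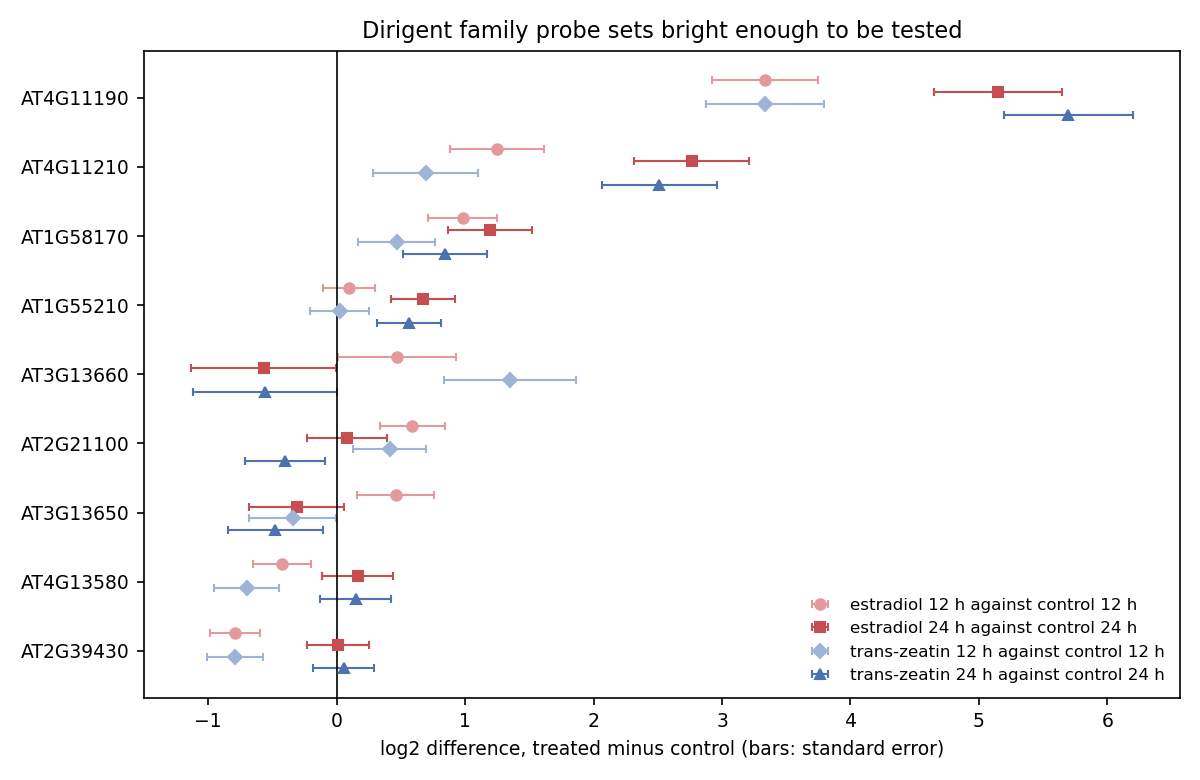
Log2 differences from control of the 9 measured dirigent genes with both treatments at both times. AT4G11190 lies at 3.33 to 5.70 and AT4G11210 at 0.69 to 2.76, while the 7 relatives lie between -0.79 and 1.35, the upper value being that of AT3G13660, which passed the filter only through that group; bars are standard errors.

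Genes that act around dirigent proteins were few on the list of named probe sets. Here and below, a measured gene is one with a named probe set that passed the filter. The other listed genes were not read and may lie on unnamed probe sets. Of 19 genes of monolignol synthesis, HCT and CCR2 were measured, enzymes of the shared pathway to lignin precursors. Neither was called in any comparison, and 1 of them, HCT with estradiol at 24 h (-0.41 ± 0.16, limma adjusted p = 0.181), had an unadjusted p under 0.05. Of 17 laccases, the oxidases that make monolignol radicals, LAC16 was measured. It was above control on all arrays in all 4 comparisons and was called in none. Such a split held for 11.1% and 19.8% of probe sets with estradiol at 12 and 24 h. With trans-zeatin it held for 17.6% and 22.2%. The log2 differences of LAC16 were 1.19 ± 0.38 (limma adjusted p = 0.090) and 1.22 ± 0.47 (0.176) with estradiol at 12 and 24 h. With trans-zeatin they were 0.96 ± 0.43 (0.189) and 0.55 ± 0.47 (0.606). Over the 25 alternatives they ran from 0.79 to 1.93 and from 0.81 to 2.85 with estradiol. With trans-zeatin the ranges were 0.67 to 1.79 and 0.26 to 1.63. UGT71C1, a glucosyltransferase and the 1 measured of 3 genes for later lignan steps, differed by -0.38 to -0.04 and was not called.

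Of 15 genes listed for the endodermis and Casparian strip 5 were measured, and of 14 suberin genes none. AT4G11290 fell with trans-zeatin at 12 h, from 256 ± 122 (SD, n = 3) to 67.2 ± 19.5 (SD, n = 2), by -1.77 ± 0.40 on the log2 scale (limma adjusted p = 0.019). The call held in 19 of 25 alternatives and was lost without control 12 h replicate 3, without either trans-zeatin array at 12 h, without both arrays that stood apart (adjusted p = 0.0516) and with either actin ratio as a covariate. With estradiol at 12 h the gene differed by -1.20 ± 0.36 (limma adjusted p = 0.074). AT1G61590 was below control on all arrays in all 4 comparisons, by at most -0.82 ± 0.24 with trans-zeatin at 12 h (limma adjusted p = 0.0506), and was not called. GSO1, a receptor kinase needed to close the Casparian strip, AT5G66390, listed as PEROXIDASE 72, and the fifth gene of the list were not called in any comparison and differed by -0.30 to 0.58.

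LHCB4.1, a light-harvesting gene listed as a marker of green tissue, had signals of 83.6 to 93.7 in controls and 197 to 480 with estradiol and 134 to 233 with trans-zeatin at 24 h. At 12 h its signals were 132 to 148 in controls, 51.5 to 230 with estradiol and 140 to 225 with trans-zeatin. It was the 1 measured gene of 5 on its list, and its differences at 24 h were 1.73 ± 0.51 (limma adjusted p = 0.080) and 0.95 ± 0.51 (adjusted p = 0.378). Its higher level lay on the same 24 h arrays as that of the members, and its part in their difference was not tested.

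Likeness to each member was measured as Pearson's r of log2 levels over all 14 arrays with 8526 probe sets of 1 gene each. The arrays share the split into treated and control groups that chose the members, so genes with that split come first, and their differences are a description without a test. A high r over these arrays also favours genes with the member's pattern over time, so a shared time pattern is not a separate result. For AT4G11190 the 5 most similar genes were AT3G28320 (r = 0.98), AT3G26470 (0.98), AT5G26260 (0.97), AT3G28310 (0.95) and AT3G50300 (0.95). Over the 9 treated arrays alone their r was 0.71, 0.44, 0.76, 0.64 and 0.43. AT4G11210 came 45th in this order, with r = 0.88.

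These profiles were alike in shape and not in size. AT3G28320 was 8.46-fold and 24.4-fold above control with estradiol at 12 and 24 h and 10.7-fold and 46.7-fold with trans-zeatin, the nearest in size to the 10.1, 35.5, 10.1 and 51.8 of AT4G11190. AT5G26260 was 6.81-fold to 27.2-fold above control and AT3G28310 was 6.51-fold to 17.5-fold above. AT3G26470, with nearly the same r, was 1.71-fold to 2.42-fold above control, and AT3G50300 was 2.17-fold to 4.61-fold above. All 5 had a larger fold at 24 h than at 12 h with either treatment, a pattern that their choice by r favours.

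For AT4G11210 the 5 most similar genes were AT1G31710 (r = 0.95), AT5G12050 (0.95), AT3G45700 (0.91), AT4G23670 (0.91) and AT1G77400 (0.90), and AT4G11190 came 10th. Over the treated arrays alone their r was 0.80, 0.78, 0.73, 0.38 and 0.45. None of them is among the 5 most similar to AT4G11190. AT1G31710 was 2.50-fold and 11.2-fold above control with estradiol at 12 and 24 h and 1.55-fold and 6.50-fold with trans-zeatin, beside 2.38, 6.79, 1.62 and 5.71 for AT4G11210. AT5G12050 had the smallest folds, 1.11 to 2.08. As in AT4G11210, the differences from control in these 5 genes were small at 12 h, at 1.11-fold to 3.01-fold, and larger at 24 h, at 2.02-fold to 11.2-fold. Their choice by r with AT4G11210 favours this pattern too.

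**Figure D5:**
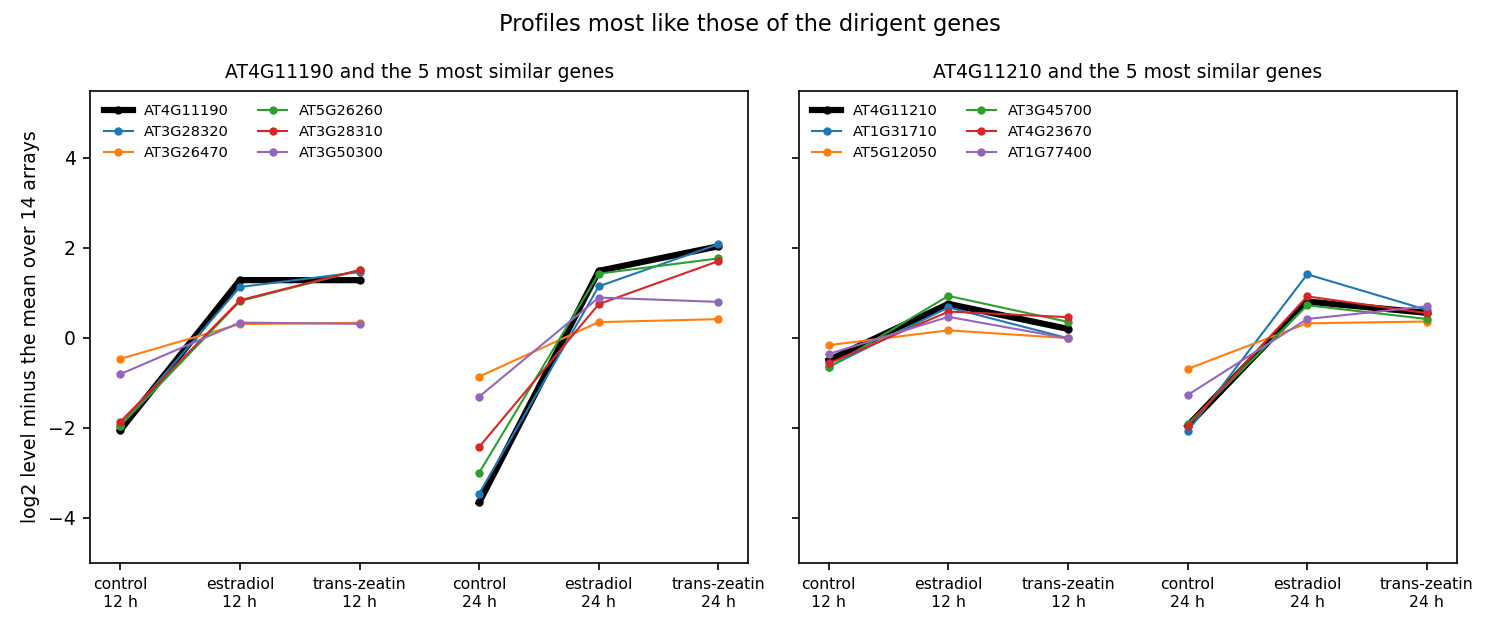
Group means of log2(signal + 6.3), each gene minus its own mean over the 14 arrays, for AT4G11190 (left) and AT4G11210 (right) with the 5 genes whose profiles are most similar by Pearson's r. In both panels each gene is lowest in the 24 h control; AT3G28320, the closest to AT4G11190, was 8.46-fold above control with estradiol at 12 h and 24.4-fold at 24 h.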

How the data were processed

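Root tip RNA of each sample was hybridised to 1 ATH1 array (Affymetrix). The deposited table gives each probe set's intensity on a linear scale. Per the submitters' processing notes, the authors used MAS5 and GCOS. Their versions are not given in the sources read. Each array's deposited intensity has a mean of 100 after trimming 2% at each end, so no further normalization was applied. Groups were taken from the labels. Signals were analysed as log2(signal + 6.3), 6.3 being the 20th percentile of all values. The filter asked for a signal over 23, the 40th percentile, on 2 or more arrays and left 15605 of 22810 probe sets, with 64 control probe sets dropped. The fit in limma 3.58.1 (R 4.3.3) took all 14 arrays, gave each group its own mean and moderated variances along an intensity trend, with 8 residual degrees of freedom and 5.96 from the prior. Calls were two-sided, at an adjusted p under 0.05 by Benjamini-Hochberg over the filtered table; every adjusted p of a gene is from this fit. The fit was also run on simulated data for comparisons between treated groups, not for those with control, and nothing is concluded from it here. The control difference between times was planned as a test of the members and is given as a description, since the controls entered the comparisons that chose them. The treated arrays entered them too, so the member tests kept between treated groups are not independent of the choice. Permutation tests used scipy 1.17.1.

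The members, gene lists, rules and most alternatives were chosen with earlier results of these data known; the family list was compiled from general knowledge. Named genes are both members, all family genes with a probe set of their own, up to 4 genes with the lowest p of each other list, measured genes within 10 places in gene order, and the 5 most similar genes per member. Probe sets were named through the reference's pairing with genes; 2 probe sets that pair with a family gene among several genes are given without a gene name. TAIR10.1 served for names and gene order only, since the labels state no build. Probe sequences were not examined, so RNA of near relatives binding the same probes was not checked. Same-numbered replicates did not deviate together: 3 of 31 pairs across groups had a correlation of deviations over 0.1, in a range of -0.27 to 0.19. Alternatives were quantile normalization, median centring, other pseudocounts, no filter, no trend, a replicate block, fits of the compared groups only, actin ratios as covariates, and leaving out arrays.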

Additional observations from a re-analysis of the deposited data

How the results depend on the processing

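For the members, 22 values were compared under 25 alternatives, of which the older actin ratio as a covariate was added after seeing the data. Of 550 values, 523 kept their direction and size or side of the threshold, 12 moved and 13 changed sign. Another 2, control differences between times given here without a test, crossed the threshold. The causes were not tested. For differences between treatments or between times, kept meant the same sign and side of the threshold, whatever the size. For differences from control and their changes with time, kept meant the same sign and a move smaller than the gene's SD within groups. The count of kept values thus says little about how stable the sizes are. AT4G11190, estradiol minus trans-zeatin at 12 h (0.00030), was -0.0234 with median centring, -0.0386 with the actin ratio and -0.3463 to 0.3469 leaving out 1 array each. Its estradiol difference between times (0.21) was -0.31 with the actin ratio, and its control difference between times (-1.61) was -2.22 to -1.13 leaving out 1 array each, lowest without control 12 h replicate 1. With replicate number as a block, which pairs nothing here, the AT4G11190 difference between treatments at 12 h was -0.11 and no member passed or lost the threshold.

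For AT4G11210, leaving out both arrays that stood apart gave 1.96 for estradiol at 12 h, -0.38 for estradiol between times and 0.80 for the change of the estradiol difference. The older actin ratio gave 0.33 for estradiol and -0.0641 for trans-zeatin at 12 h, and 2.82 and 3.07 for the changes of the differences with time. With no pseudocount the 24 h differences were 4.24 and 3.96, the control difference -2.67 and the changes 2.739 and 3.07. With the doubled pseudocount they were 2.16 and 1.93, and with the actin ratio trans-zeatin at 24 h was 1.88. Leaving out 1 array each gave -0.18 to 0.68 between treatments at 24 h, -0.38 to 0.37 for estradiol between times and -0.0672 to 0.785 for trans-zeatin between times.

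Counts of called probe sets moved more. Against 762, 595, 1176 and 541 for estradiol 12 h and 24 h and trans-zeatin 12 h and 24 h, leaving out 1 array each gave 417 to 964, 198 to 732, 264 to 1373 and 164 to 658, and other alternatives 100 to 790, 197 to 939, 130 to 1192 and 78 to 1423. The lowest count of each comparison with control came from a fit with an actin ratio as a covariate. In the same order, the first actin ratio gave 173, 197, 130 and 78, and the older ratio gave 100, 367, 157 and 364. Between treatments the counts were 1 to 5 at 12 h and 2 to 21 at 24 h. Between times they were 1 to 93 for controls, 9 to 121 for estradiol and 7 to 128 for trans-zeatin. Signals of AT4G11210 near the dim end of the arrays limit its differences at 24 h.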
